A study of Homo sapiens with 16 samples.

Results

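The oncostatin M and IL6 family members described here are 10 human genes: the ligands LIF, IL6 and IL11, the receptor chains OSMR, LIFR, IL6R and IL6ST, the kinases JAK1 and JAK2, and the inhibitor SOCS3. They were taken by gene symbol from the 2 expression tables of the series, and each symbol had 1 row in the table of the first experiment (17318 genes) and 1 in that of the second (18168 genes). The members were chosen by name after OSMR levels had been seen to differ between the groups of the second experiment, so they were selected on measured values of these libraries. The members' differences and correlations in that experiment are therefore a description, with no test, and their differences in the first experiment are the ones that were tested. Counts of other genes in the second experiment stand beside the share over all genes, and nothing is read from them.

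The tumours came from luciferase-expressing U87 cells, a long-established line of human glioblastoma, placed in the brains of nude mice, which lack a thymus but keep microglia, macrophages and vessels of their own. All mice received MSC exosomes (MSC is not spelled out in the labels) and every tumour has the genotype label WT. Myc1 (n = 3) received exosomes with a siRNA against human MYC, number 1, and Scr1 (n = 4) exosomes with scramble siRNA number 1. Both were dosed from day 28 after implantation, every other day, with 1e9 exosomes in 100 µl injected behind the eye. Myc2 (n = 5) and Scr2 (n = 4) received MYC siRNA number 2 and scramble siRNA number 2, and the dosing of these 2 groups is not given in the sources used here. Each library came from the tumour of 1 mouse, taken at euthanasia, so the tests measure the spread between mice, and mouse age is not given. In such bulk tumours, fewer cells of a type and less RNA per cell cannot be told apart.

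IL6 family cytokines act through receptor complexes that share the chain gp130, encoded by IL6ST. IL6 and IL11 first bind their own receptor chains and then pair gp130 molecules, LIF joins LIFR to gp130, and oncostatin M joins OSMR or LIFR to gp130. The assembled receptors activate JAK kinases bound to their inner parts, which phosphorylate STAT3. STAT3 then switches on target genes, among them SOCS3, whose product binds gp130 and the kinases and shuts the signal down. In glioblastoma, oncostatin M from macrophages acting on OSMR of tumour cells is known for promoting the mesenchymal state.

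Group means of OSMR, IL6ST, IL6, IL11, LIFR, JAK1 and JAK2 were higher with both siRNAs. Of these members, the start regions of 4 are shown by choice: OSMR and IL6ST, a receptor pair of oncostatin M, and the ligands IL6 and IL11. Each is the 250 bases before the RefSeq start on build GRCh38.p14, written 5′ to 3′ on the gene's strand, at chr5:38845762-38846011 (plus strand) for OSMR, chr5:55994964-55995213 (minus) for IL6ST, chr7:22726950-22727199 (plus) for IL6 and chr19:55370464-55370713 (minus) for IL11. Capitals mark matches, on either strand, to the STAT motif TTCNNNGAA, the AP-1 motif TGANTCA or the NF-kB motif (GGG, any 5 bases, CC).
OSMR: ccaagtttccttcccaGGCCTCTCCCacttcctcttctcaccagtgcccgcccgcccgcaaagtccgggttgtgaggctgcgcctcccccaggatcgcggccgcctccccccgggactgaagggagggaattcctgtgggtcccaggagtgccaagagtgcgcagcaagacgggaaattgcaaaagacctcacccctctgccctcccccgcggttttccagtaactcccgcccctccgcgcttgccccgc
IL6ST: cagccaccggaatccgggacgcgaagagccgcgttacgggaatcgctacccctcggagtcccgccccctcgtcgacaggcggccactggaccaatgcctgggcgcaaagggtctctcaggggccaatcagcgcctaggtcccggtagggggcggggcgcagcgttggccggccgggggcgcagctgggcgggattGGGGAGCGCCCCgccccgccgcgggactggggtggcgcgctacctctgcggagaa
IL6: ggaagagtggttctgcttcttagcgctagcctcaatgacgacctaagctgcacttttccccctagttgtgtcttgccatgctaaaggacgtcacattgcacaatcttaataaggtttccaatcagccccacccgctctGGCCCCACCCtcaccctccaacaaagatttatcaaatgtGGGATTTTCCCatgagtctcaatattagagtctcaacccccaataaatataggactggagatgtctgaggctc
IL11: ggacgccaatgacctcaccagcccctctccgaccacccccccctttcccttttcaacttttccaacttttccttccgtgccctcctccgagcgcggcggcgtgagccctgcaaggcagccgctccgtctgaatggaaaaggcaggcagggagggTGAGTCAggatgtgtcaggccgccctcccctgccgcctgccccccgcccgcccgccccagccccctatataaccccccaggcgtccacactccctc

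The IL6 window held GGGATTTTCC 73 bases before the start, which overlaps a match on the other strand, and a further NF-kB match 112 bases before it. The OSMR window held 1 NF-kB match, 234 bases before the start, and the IL6ST window 4 that overlap each other. The IL11 window held the AP-1 match TGAGTCA 96 bases before the start. No STAT match was found in these 4 windows or in the 2 windows listed for SOCS3, while 2 of the 3 listed LIFR starts had 1, TTCCTTGAA and TTCATCGAA. Over 35116 RefSeq windows of the same length, 6.57% held the STAT motif, 6.57% the AP-1 motif and 54.4% the short NF-kB motif, so an NF-kB match of this kind is common. These matches describe letters only. RefSeq's table had windows for 9 of the 10 members and none for LIF.

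OSMR and LIFR lie next to each other on chromosome 5, with 0 protein-coding genes between them, in opposite orientation (OSMR on the plus and LIFR on the minus strand, GENCODE 29 on GRCh38). IL6ST lies on chromosome 5 as well, LIF on chromosome 22, IL6 on 7, IL11 on 19, IL6R and JAK1 on 1, JAK2 on 9 and SOCS3 on 17. Exons of RICTOR on the other strand cover 3.19% of OSMR's exon bases, those of LIFR-AS1 5.3% of LIFR's, those of the antisense gene AC073072.1 20.7% of IL6's and those of STEAP1B 2.22% of IL6's. Whether the counting used strand is not given in the sources used here, so reads in these stretches cannot be assigned with certainty. AC073072.1 had a median of 0.595 CPM (read counts scaled to the same total per library) in the first table and 0.622 CPM in the second, STEAP1B had 22.0 and 13.6 CPM, and the group medians of IL6 were 3.53 to 7.01 CPM.

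The deposited values are quantile-normalized log2 CPM, with each table normalized on its own, so levels are compared within a table only. Library sizes, estimated from the spacing of low values, were 15.2 to 29.5 M reads (M, 1e6) apart from Scr1 replicate 3 (3.35 M) and Scr2 replicate 4 (10.5 M). Quantile normalization also moves low values, so these sizes are rough, as are the read numbers that rest on them. Along the first principal component Scr1 replicate 4 (-61.5) lay apart from the other libraries of its table (-29.5 to 44.7), and Scr2 replicates 1 and 4 (-63.4 and -94.4) lay apart from theirs (2.74 to 47.6). These libraries also had outlying mean log2 CPM over 77 ribosomal protein genes: 8.53 in Scr1 replicate 4 against 9.09 to 9.45 in the other 6, and 9.47 and 9.80 in Scr2 replicates 1 and 4 against 8.43 to 8.97 in the other 7. Their part in the results was not tested beyond leaving them out. The 8 U87 and mesenchymal markers, led by VIM, all had rows and summed to 12686 to 18343 CPM over the 16 libraries. Of 9 microglia and macrophage markers 4 had rows in each table, and the defining genes AIF1, CX3CR1, P2RY12 and TYROBP had none. Those with rows, led by CD68, summed to 332 to 403 CPM in Myc1 and 247 to 348 CPM in Scr1. In the second table they summed to 178 to 277 CPM in Myc2 and 164 to 270 CPM in Scr2. Which cells these values come from was not tested. The tables held 0 mouse gene identifiers, so cytokine genes of the host have no values of their own here. How mouse reads were handled is not given in the sources used here, and whether some were counted on human genes was not tested.

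MYC, the siRNA target, was at 38.1, 26.5 and 14.3 CPM in Myc1 and at 21.2, 30.2, 50.7 and 108 CPM in Scr1. The groups overlapped, with a log2 difference of -0.83 ± 0.54 (SE; exact permutation p = 0.314), which was -0.39 without Scr1 replicate 4. In the libraries labelled Myc2 it was higher, at 42.3 to 72.1 CPM, than in those labelled Scr2, at 25.9 to 47.1 CPM (log2 difference 0.57 ± 0.21, SE). The highest Scr2 library lay above the lowest Myc2 library. This direction goes against the label, so the groups of the second experiment are named as labelled throughout.

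Over all 10 members, the difference between Myc1 and Scr1 was above 0 for 7 and below 0 for 3 (LIF, IL6R and SOCS3), with a median of 0.18 on the log2 scale against -0.0028 over the 13933 genes tested. By limma, 0 of the 10 passed an adjusted p of 0.05 (0% of all genes did) and 0 passed at an unadjusted p of 0.05 (3.48% of all genes did). The groups did not separate fully for any member (0 of 10, against 4.21% of all genes). Exact permutation tests, two-sided, over the 35 arrangements of the libraries can reach p = 0.0286 at the smallest, and no member came under 0.05. Between the libraries labelled Myc2 and Scr2, the difference was above 0 for all 10, with a median of 0.54 against -0.018 over 14208 genes. Full separation was again seen for 0 of 10, against 3.01% of all genes. Without Scr2 replicates 1 and 4, the libraries that stood apart, LIFR and JAK2 went below 0 and OSMR, IL6 and the others stayed above it.

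**Figure D1:**
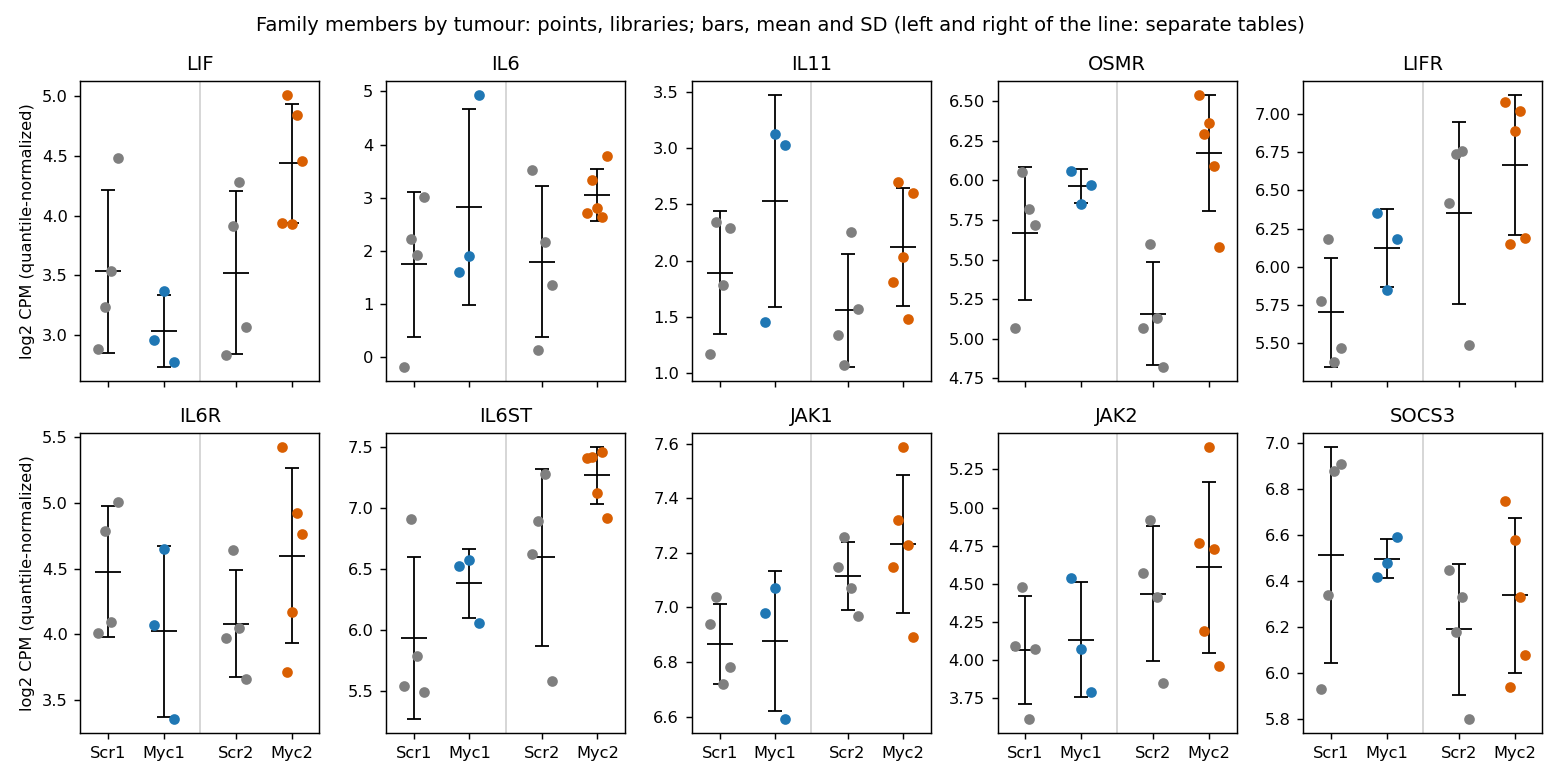
Level of each member in every tumour, as log2 CPM on the vertical axis of its own panel, with the 4 groups along the horizontal axis. Points are libraries and bars the mean and SD. OSMR is higher in 4 of the 5 Myc2 libraries than in any Scr2 library, while its Myc1 points lie within the range of Scr1 or just above it.

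OSMR, the receptor chain that binds oncostatin M together with gp130, stood at 66.9, 57.7 and 62.7 CPM in Myc1 and at 33.6, 66.2, 56.5 and 52.8 CPM in Scr1. All 3 Myc1 libraries were above 3 of the 4 Scr1 libraries, but Scr1 replicate 2 lay within their range. The means were 5.96 ± 0.11 log2 CPM (SD, n = 3) and 5.67 ± 0.42 (SD, n = 4), a difference of 0.30 ± 0.25 (SE) whose 95% interval ran from -0.24 to 0.83 (p = 0.314 by exact permutation, limma adjusted p = 0.996). Scr1 replicate 1, the lowest library, carried much of this difference, which was 0.098 without it. In the second experiment OSMR stood at 92.8, 78.2, 81.9, 68.3 and 47.9 CPM in Myc2 and at 33.6, 48.6, 35.1 and 28.3 CPM in Scr2. The groups met at 1 point, since Myc2 replicate 5 lay just under Scr2 replicate 2, and the other 4 Myc2 libraries were above every Scr2 library. The difference was 1.01 ± 0.22 on the log2 scale (SE), or 2.02-fold. It was 0.80 without Scr2 replicates 1 and 4, and 0.90 to 1.16 with any 1 library left out.

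IL6ST encodes gp130, the signalling chain shared by the whole family. It stood at 91.8, 94.8 and 66.6 CPM in Myc1 and at 46.6, 120.4, 55.2 and 45.1 CPM in Scr1. As with OSMR, 3 of the 4 Scr1 libraries were below all Myc1 libraries and Scr1 replicate 2 was the exception, here the highest of all 7. The difference was 0.45 ± 0.32 (SE), 95% interval -0.23 to 1.13 (exact permutation p = 0.343). With 1 library left out it lay between 0.30 (without Scr1 replicate 4) and 0.77 (without Scr1 replicate 2). In Myc2 IL6ST stood at 170.6, 170.7, 139.5, 176.0 and 121.1 CPM and in Scr2 at 98.1, 118.8, 155.9 and 48.0 CPM. Scr2 replicate 3 lay among the Myc2 libraries and the other 3 below all of them. The log2 difference of 0.67 ± 0.29 (SE) depended on Scr2 replicate 4, without which it was 0.34, and was 0.18 without Scr2 replicates 1 and 4.

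LIFR, the chain that binds LIF and can also serve oncostatin M, stood at 81.4, 57.6 and 72.6 CPM in Myc1 and at 54.9, 72.4, 41.8 and 44.3 CPM in Scr1. The 3 lowest of these 7 libraries were all Scr1. The difference was 0.42 ± 0.24 (SE), 95% interval -0.10 to 0.95, with the smallest exact permutation p of the 10 members, 0.114. Myc2 libraries held 135.6, 71.2, 118.8, 129.9 and 72.8 CPM and Scr2 libraries 85.6, 106.8, 108.5 and 45.0 CPM. Here 3 Myc2 libraries were above all Scr2 libraries and the other 2 were below 3 of the 4. The log2 difference of 0.31 ± 0.30 (SE) was 0.027 without Scr2 replicate 4 and -0.08 without Scr2 replicates 1 and 4.

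IL6R, the ligand-binding chain of the IL6 receptor, had differences of opposite sign in the 2 experiments, with wide overlap in both. It stood at 16.8, 25.1 and 10.2 CPM in Myc1 and at 16.1, 27.6, 17.0 and 32.2 CPM in Scr1. The difference was -0.45 ± 0.35 (SE), 95% interval -1.20 to 0.29 (exact permutation p = 0.343), and lay between -0.12 (without Myc1 replicate 3, the lowest library) and -0.77 (without Myc1 replicate 2). Myc2 libraries held 43.1, 13.1, 18, 30.3 and 27.1 CPM and Scr2 libraries 15.6, 24.9, 16.6 and 12.6 CPM. The log2 difference of 0.52 ± 0.33 (SE) was 0.31 without Myc2 replicate 1 and 0.25 without Scr2 replicates 1 and 4. The difference between the experiments was not tested.

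The share of OSMR relative to its partner chains was followed as a log2 difference within each library, in which library-wide shifts cancel. OSMR minus LIFR averaged -0.16 ± 0.15 in Myc1 (SD, n = 3) and -0.04 ± 0.51 in Scr1 (SD, n = 4), a difference of -0.13 (exact permutation p = 0.714). In the second experiment it was -0.55, 0.14, -0.54, -0.93 and -0.61 in Myc2 and -1.35, -1.14, -1.63 and -0.67 in Scr2. The 4 highest values were all Myc2, and Scr2 replicate 4 lay above the lowest Myc2 library. The means differed by 0.70, and by 0.54 to 0.88 with any 1 library left out. OSMR minus IL6ST differed by -0.15 in the first experiment (exact permutation p = 0.714) and by 0.34 in the second, where the groups overlapped and leaving out Scr2 replicate 3 left 0.10 and leaving out Scr2 replicate 4 gave 0.57.

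**Figure D2:**
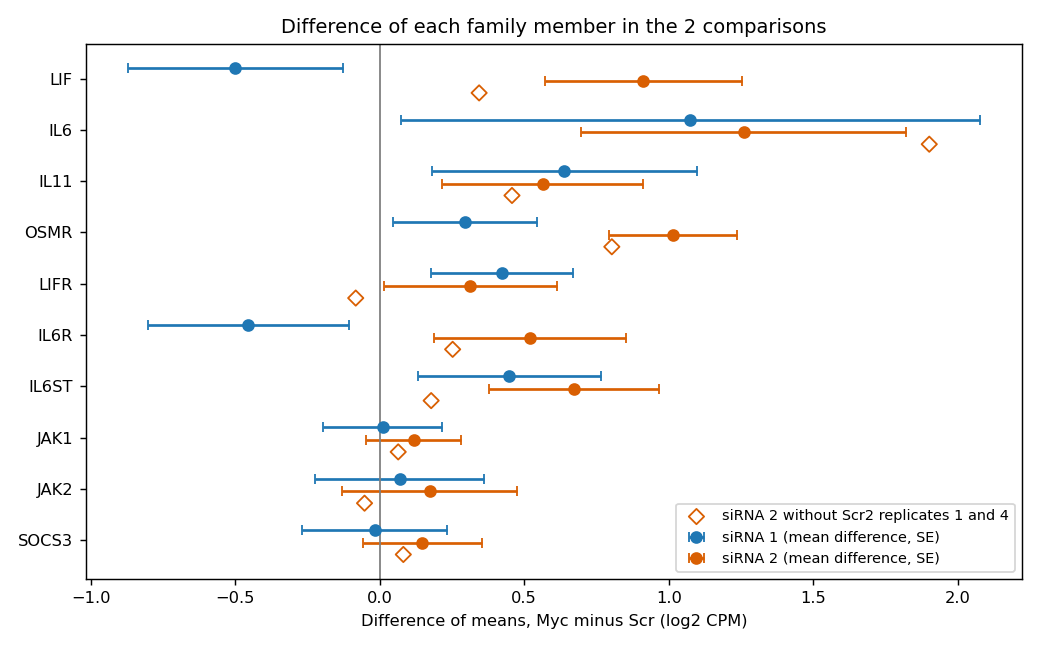
Difference of means, Myc minus Scr, in log2 CPM for each member. Filled points with SE bars are siRNA 1 and siRNA 2, and open diamonds are siRNA 2 without Scr2 replicates 1 and 4. OSMR keeps 0.80 of its 1.01 without those libraries, and IL6ST keeps 0.18 of 0.67.

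LIF, the leukaemia inhibitory factor that signals through LIFR and gp130, stood at 7.77, 10.3 and 6.87 CPM in Myc1 and at 7.4, 9.45, 11.6 and 22.3 CPM in Scr1. The highest value, in Scr1 replicate 4, was in the library with the lowest ribosomal protein level of its table. The difference was -0.50 ± 0.37 (SE), 95% interval -1.29 to 0.30 (exact permutation p = 0.314), and it was -0.18 without that library. Myc2 libraries held 15.4, 32.3, 15.3, 28.6 and 21.9 CPM and Scr2 libraries 7.14, 15, 19.4 and 8.42 CPM. The 2 lowest values were those of Scr2 replicates 1 and 4, the libraries with the highest ribosomal protein level. The log2 difference of 0.91 ± 0.34 (SE) was 0.34 without them.

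IL6, the cytokine that names the family, had the largest SD of the 10 members when pooled over the groups of a table, although within Myc2 its SD of 0.49 was below those of IL6R, JAK2, IL11 and LIF. It stood at 3.03, 3.74 and 30.7 CPM in Myc1 and at 0.872, 4.67, 3.78 and 8.1 CPM in Scr1. Myc1 replicate 3 was far above every other library of its table, and the other 2 Myc1 libraries lay within the range of Scr1. The difference of 1.07 ± 1.00 (SE), 95% interval -1.25 to 3.40 (exact permutation p = 0.543), was 0.011 without that library and 1.68 without Myc1 replicate 1. By the rough library sizes, the value of Scr1 replicate 3 rested on about 13 reads and that of Scr1 replicate 1 on about 15. Myc2 libraries held 6.49, 10, 7.01, 6.25 and 13.7 CPM and Scr2 libraries 11.4, 1.09, 4.51 and 2.55 CPM. All Myc2 libraries were above 3 Scr2 libraries, and Scr2 replicate 1 lay among them. The log2 difference of 1.26 ± 0.56 (SE) dropped to 0.70 when Scr2 replicate 2 was omitted and came to 1.83 when Scr2 replicate 1 was. It was 1.90 without Scr2 replicates 1 and 4.

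IL11, which signals through IL11RA and gp130, was the lowest member per length in 3 of the 4 groups. It stood at 2.73, 8.68 and 8.18 CPM in Myc1 and at 2.24, 5.06, 3.44 and 4.88 CPM in Scr1, so 2 Myc1 libraries were above every Scr1 library and the other was second lowest. The difference was 0.64 ± 0.46 (SE), 95% interval -0.35 to 1.62 (exact permutation p = 0.314). It was 0.35 without Myc1 replicate 2 and 1.18 without Myc1 replicate 1. Myc2 libraries held 3.5, 6.49, 4.07, 2.78 and 6.05 CPM and Scr2 libraries 2.52, 2.11, 4.76 and 2.96 CPM. The groups overlapped, with a log2 difference of 0.56 ± 0.35 (SE).

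JAK1, the main kinase bound to gp130, was the steadiest member. It stood at 126.0, 134.2 and 96.1 CPM in Myc1 and at 122.6, 131.3, 105.1 and 109.6 CPM in Scr1, a difference of 0.01 ± 0.21 (SE; exact permutation p = 0.943) whose 95% interval was -0.43 to 0.45. In the second experiment the Myc2 values of JAK1, 118.5 to 192.0 CPM, enclosed those of Scr2, 125.4 to 153.7 CPM, with a log2 difference of 0.12 ± 0.16 (SE) that was 0.030 without Myc2 replicate 3 and 0.20 without Myc2 replicate 5. JAK2, the second kinase of these receptors, stood at 13.8 to 23.2 CPM in Myc1 and 12.2 to 22.3 CPM in Scr1, a difference of 0.07 ± 0.29 (SE; exact permutation p = 0.714). In the second experiment it held 15.5 to 42.1 CPM in Myc2, with Myc2 replicate 3 highest, and 14.5 to 30.2 CPM in Scr2 (log2 difference 0.17 ± 0.30, SE). That difference went below 0 without Myc2 replicate 3 (-0.023), without Scr2 replicate 4 (-0.021) and without Scr2 replicates 1 and 4 (-0.052), and was 0.34 without Myc2 replicate 5. The groups overlapped for both kinases in both experiments.

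SOCS3, the inhibitor that STAT3 induces, had nearly the same mean in both groups of the first experiment but an unequal spread. It stood at 85.9, 89.2 and 96.4 CPM in Myc1 and at 60.9, 81.2, 117.5 and 120.3 CPM in Scr1. All Myc1 values lay in the middle of the Scr1 range, and the difference was -0.02 ± 0.25 (SE), 95% interval -0.55 to 0.52 (exact permutation p = 1.0). Myc2 libraries held 107.8, 61.4, 95.9, 80.6 and 67.7 CPM and Scr2 libraries 87.6, 72.8, 80.3 and 55.6 CPM. The log2 difference was 0.15 ± 0.21 (SE), 0.016 without Scr2 replicate 4 and 0.25 without Myc2 replicate 2, and the groups overlapped widely.

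The members differed in how much they varied between tumours of the same group. The pooled SD within groups was 1.58 log2 units for IL6 in the first table and 1.00 in the second, above 98.8% and 94.6% of the genes tested. For JAK1 it was 0.20 and 0.21, above 9.52% and 12.1% of genes. The median gene had 0.37 and 0.38. OSMR, at 0.33 and 0.35, was close to the median gene, and 5 of the 10 members in the first table and 7 in the second varied more than it.

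Between genes, levels were compared as CPM per kilobase of merged exons (GENCODE 29), which understates genes with long ends that a tumour does not use. In Scr1 the geometric means were 33.4 for SOCS3, 18.5 for JAK1, 7.07 for OSMR, 6.58 for IL6ST, 4.39 for LIFR, 3.45 for IL6R, 2.92 for LIF, 2.71 for JAK2, 1.62 for IL6 and 1.39 for IL11. SOCS3 and JAK1 lay apart from each other and from the rest in Scr1, while OSMR, IL6ST and LIFR overlapped from library to library, as did IL6R, LIF, JAK2 and IL6. In Scr2 SOCS3 (26.7) and JAK1 (21.9) overlapped, and IL6ST (10.4), LIFR (6.89) and OSMR (4.97) followed with overlapping ranges. In Myc2 the order of the receptor chains was IL6ST (16.6), OSMR (10) and LIFR (8.57), again with OSMR and LIFR overlapping. The group means of SOCS3, JAK1 and IL6ST were above those of LIF, IL6 and IL11 in all 4 groups. The highest single ligand value was that of IL6 in Myc1 replicate 3, at 14.9 CPM per kilobase.

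**Figure D3:**
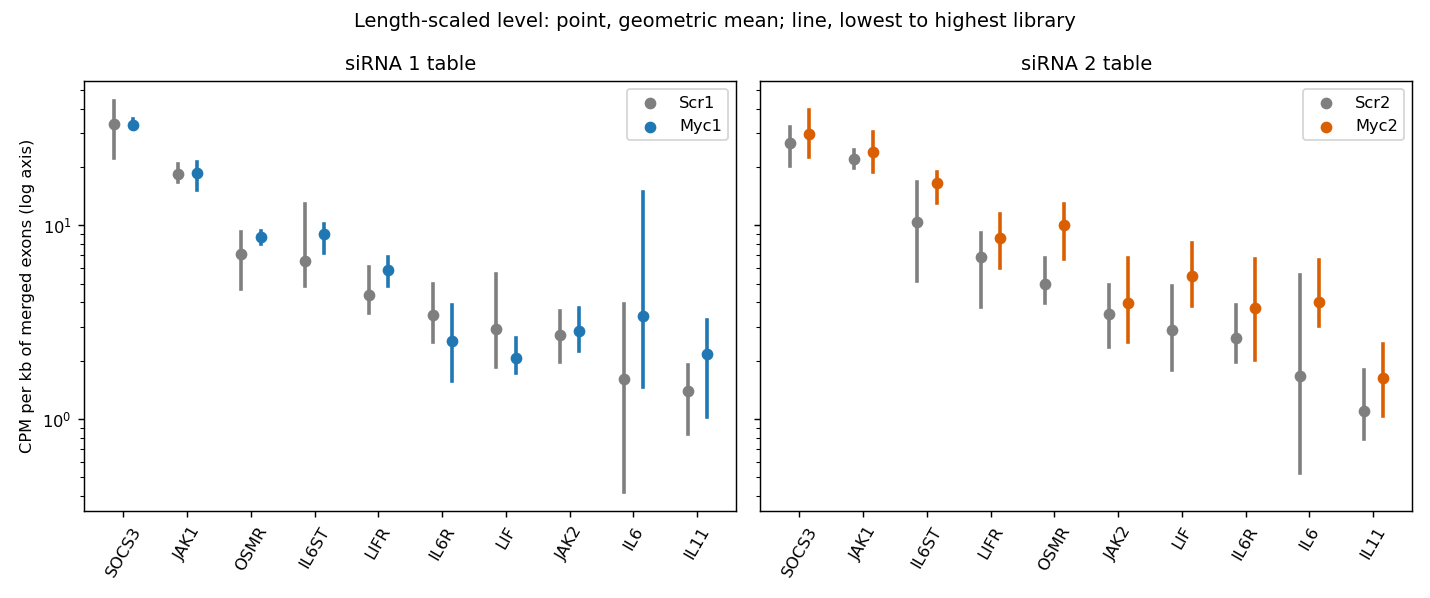
CPM per kilobase of merged exons on a log axis for the 10 members, ordered by level within each table. Points are geometric means and lines run from the lowest to the highest library. SOCS3 and JAK1 stand highest in all 4 groups, and the IL6 line of Myc1 reaches 14.9.

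Across all libraries of a table, OSMR and IL6ST were positively correlated (4 pairs of members were examined in 2 tables, adjusted p-values are over these 8, and the second table is given with no p). Pearson's r was 0.69 over the 7 libraries of the first table (permutation p = 0.0468, adjusted 0.187; Spearman's rho 0.79, permutation p = 0.0480, adjusted 0.157) and 0.74 over the 9 of the second (rho 0.70), where the OSMR difference that chose the members enters r. The first did not pass after adjustment. Without the 2 libraries farthest from the median of OSMR, r was 0.79 and 0.60, and with group means removed it was 0.61 and 0.55. OSMR and SOCS3 had r = 0.51 (adjusted permutation p = 0.429) and 0.48, with rho = -0.18 and 0.53. These rest on the 2 libraries farthest from the median, without which r was -0.84 and -0.12. LIF with IL6 gave r = 0.12 (adjusted permutation p = 0.829) and 0.23, and LIF with IL11 r = 0.12 (adjusted permutation p = 0.829) and 0.58.

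**Figure D4:**
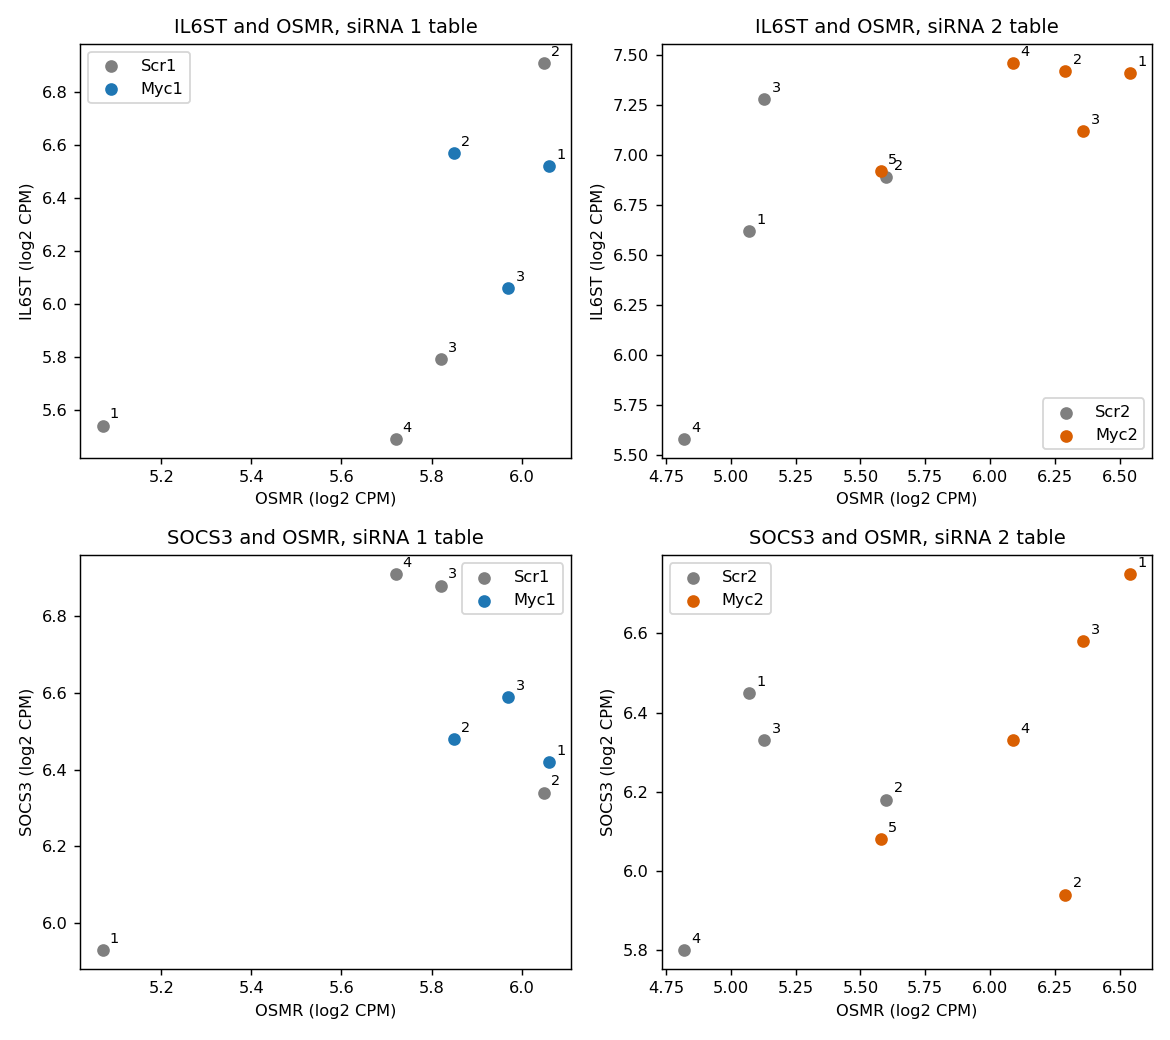
OSMR on the horizontal axis against IL6ST (top) and SOCS3 (bottom) on the vertical axis, in log2 CPM, for each library of the 2 tables, with replicate numbers beside the points. The IL6ST panels have r = 0.69 and 0.74, and the SOCS3 panels lose their positive slope without Scr1 replicate 1 and Myc1 replicate 1 on the left and Scr2 replicate 4 and Myc2 replicate 1 on the right.

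Genes most like a member were ranked, over 13655 genes, by the smaller of their Pearson r with it in the 2 tables, as a description of 7 and 9 libraries that share group and depth differences. For OSMR they were CTSB, a lysosomal protease (r = 0.88 and 0.91), SLC25A37, a mitochondrial iron carrier (0.88 and 0.85), STC2, a secreted glycoprotein (0.96 and 0.84), ERRFI1, an inhibitor of the EGF receptor (0.84 and 0.87), and LOX, an enzyme that crosslinks collagen (0.82 and 0.83). IL6ST ranked 80, SOCS3 578 and LIFR 689 by the same measure. Those of SOCS3 were PLK3 (0.75 and 0.76), EML3 (0.76 and 0.75), C2orf16 (0.74 and 0.78), GFPT2 (0.74 and 0.74) and TBX3 (0.79 and 0.71). Those of LIF were MNT, a repressor that shares MYC's partner MAX (0.94 and 0.94), RPAP1 (0.94 and 0.93), ZBTB7A (0.94 and 0.93), YJEFN3 (0.97 and 0.93) and PML (0.93 and 0.95). With group means removed, r of the OSMR genes was 0.41 to 0.64 in the second table and 0.82 to 0.97 in the first, and that of the LIF genes was 0.88 to 0.97 over both.

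The wider pathway was followed in 62 other genes, of which 50 passed the filter in the first experiment and 52 in the second. The 62 include MYC, the siRNA target, which is among those counted below as higher in the second experiment. By limma, 0 of 50 passed the adjusted threshold in the first experiment (0% of all genes), and 4 were higher and 1 lower at an unadjusted p of 0.05 (1.96% and 1.52% of all genes). In the second, 0 of 52 passed the adjusted threshold (0% of all genes), and 15 were higher and 2 lower at an unadjusted p of 0.05 (7% and 6.36% of all genes, 13.4% in either direction). The lists were written with earlier results of this comparison known, so these counts are no independent evidence. The median difference was -0.014 in the first experiment and 0.18 in the second.

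Among the other ligands, OSM itself had no row in either table used here, nor had EBI3, IL27 or IL31. CNTF, the ciliary neurotrophic factor, was low and gave -0.97 ± 0.59 (SE) with siRNA 1, or -0.41 without Myc1 replicate 3, and -0.51 ± 0.39 (SE) with siRNA 2, or -0.23 without Myc2 replicate 5. CLCF1, a ligand of the CNTF receptor, gave -0.34 ± 0.30 (SE) with siRNA 1 and -0.25 ± 0.19 (SE) with siRNA 2. The siRNA 2 value was -0.20 without Myc2 replicate 5 and -0.41 without Myc2 replicate 3. Of the other receptor chains, IL11RA, the binding chain for IL11, stood at 51.0, 74.8 and 94.2 CPM in Myc1 and at 33.1, 42.5, 55.6 and 50.7 CPM in Scr1 (log2 difference 0.67 ± 0.26, SE, limma adjusted p = 0.996). The groups overlapped only through Myc1 replicate 1. IL31RA, a chain that pairs with OSMR in the IL31 receptor, stood at 24.5, 29.3 and 17.9 CPM in Myc1 and at 27.2, 42.8, 33.0 and 38.9 CPM in Scr1 (-0.58 ± 0.26, SE, limma adjusted p = 0.996), with Myc1 replicate 2 above the lowest Scr1 library, and was -0.38 without Myc1 replicate 3. In the second experiment neither chain differed by as much: IL11RA gave -0.05 and IL31RA 0.02.

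STAT3, the main transcription factor of the pathway, stood at 142, 130, 112, 119 and 111 CPM in Myc2 and at 71.3, 101, 89.8 and 67.8 CPM in Scr2. The groups did not overlap, and the log2 difference of 0.59 ± 0.17 (SE) was 0.36 without Scr2 replicates 1 and 4. In the first experiment it stood at 119, 109 and 105 CPM in Myc1 and at 84.7, 107, 112 and 127 CPM in Scr1, a difference of 0.05 ± 0.21 (SE). Over the 9 transducers tested in the second experiment, 8 were above 0 with a median of 0.54, which was 0.11 without Scr2 replicates 1 and 4, and in the first 2 of 8 were above 0 with a median of -0.16, which was -0.28 without Myc1 replicate 2 and -0.066 without Myc1 replicate 1. TYK2, a kinase of the JAK family, gave -0.30 ± 0.21 (SE) with siRNA 1, or -0.18 without Scr1 replicate 4, and 0.54 ± 0.24 (SE) with siRNA 2. In the second experiment TYK2 stood at 195 to 238 CPM in Myc2 and at 113, 232, 185 and 100 CPM in Scr2. The groups overlapped, and the low values were those of Scr2 replicates 1 and 4. Inhibitors other than SOCS3 had medians of -0.09 (12 tested) and -0.03 (13 tested), which turned to 0.12 without Myc1 replicate 3 and 0.094 without Myc2 replicate 1. PIAS4 was at -0.54 ± 0.28 (SE) in the first experiment, or -0.27 without Myc1 replicate 1, and at 0.06 ± 0.18 (SE) in the second. PIAS2 was at 0.05 ± 0.33 (SE) and -0.31 ± 0.18 (SE).

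Of the 23 STAT3 and oncostatin M target genes tested, 16 were above 0 in the first experiment (median 0.22, or 0.044 without Myc1 replicate 3). In the second, 18 were above 0 (median 0.50, or 0.41 without Scr2 replicate 4). Of all genes tested, 49.5% and 48.2% were above 0. The list was written with earlier results of these data known. It includes MYC, the siRNA target, at -0.83 in the first experiment and 0.57 in the second. CHI3L1, a secreted glycoprotein that marks mesenchymal glioma, stood at 175, 118 and 863 CPM in Myc1 and at 53.4, 112, 57.5 and 53.5 CPM in Scr1. The groups did not overlap, and the difference of 2.00 ± 0.69 (SE, limma adjusted p = 0.996) was 1.13 without Myc1 replicate 3, the library that was also highest for IL6. In Myc2 it stood at 57.2, 114, 118, 15.8 and 52.3 CPM and in Scr2 at 13.5, 11, 11.2 and 4.76 CPM, a log2 difference of 2.61 ± 0.54 (SE) with no overlap. SERPINA3, an acute-phase protease inhibitor, gave 1.63 ± 0.54 (SE, limma adjusted p = 0.996) with siRNA 1, from 10.3, 4.46 and 4.17 CPM in Myc1 against 2.72, 3.34, 0.694 and 1.89 CPM in Scr1, and -0.00014 ± 1.48 (SE) with siRNA 2. ICAM1, an adhesion molecule, gave 1.76 ± 0.66 (SE, limma adjusted p = 0.996), at 3.44 CPM or less in all 7 libraries, and 2.44 ± 0.91 (SE) with siRNA 2. There it stood at 0.758 to 4.63 CPM in Myc2 and at 2.16, 0.116, 0.469 and 0.0958 CPM in Scr2, so the second difference rested on very low values. The ICAM1 groups overlapped in both experiments.

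Another target, HIF1A, the hypoxia factor, gave 0.48 ± 0.32 (SE) with siRNA 1 and 0.53 ± 0.26 (SE) with siRNA 2. The siRNA 1 value was 0.32 without Myc1 replicate 2 and 0.78 without Myc1 replicate 3. With siRNA 2 HIF1A stood at 266 to 499 CPM in Myc2 and at 203, 383, 267 and 175 CPM in Scr2. The groups overlapped, and Scr2 replicates 1 and 4 were lowest. In the second experiment the targets higher in Myc2 with the smallest limma p, besides CHI3L1, were BCL3, an IkB family cofactor (1.27 ± 0.23, SE), CEBPB, a transcription factor of the acute-phase response (1.21 ± 0.22, SE), VEGFA, the vessel growth factor (2.80 ± 0.61, SE), and JUNB, an AP-1 subunit (0.50 ± 0.16, SE). In the first experiment these gave 0.18 (BCL3), 0.26 (CEBPB), -0.07 (VEGFA) and -0.04 (JUNB). VEGFA overlapped in the second, where Myc2 replicate 3 at 324 CPM lay below Scr2 replicate 2 at 335 CPM. CEBPB stood at 81.4 to 102 CPM in Myc2 and at 28.0 to 63.7 CPM in Scr2, with no overlap, and BCL3 at 20.6 to 40.1 and 10.1 to 14.1 CPM. Lower in Myc2 than in Scr2 were BIRC5, which encodes survivin (-0.68 ± 0.20, SE, or -0.42 without Scr2 replicates 1 and 4), and PIM2, a survival kinase (-0.52 ± 0.19, SE), with -0.05 and -0.31 in the first experiment. TIMP1, a metalloproteinase inhibitor, gave -0.25 ± 0.21 (SE), or -0.13 without Scr2 replicate 4 and -0.023 without Scr2 replicates 1 and 4, and 0.21 ± 0.22 (SE) in the first. Astrocyte markers with rows (5 of 7, led by GJA1, with AQP4 and S100B absent) summed to 324 to 402 CPM in Myc1 and 143 to 401 CPM in Scr1, and to 204 to 841 CPM in Myc2 and 169 to 488 CPM in Scr2. ALDH1L1 was below the filter, and of the 4 tested 3 were above 0 and 1 below in each experiment. GFAP, at 3.11 CPM or less in every library, gave -0.39 ± 0.41 (SE) with siRNA 1 and 0.0020 ± 0.34 (SE) with siRNA 2. Endothelial markers with rows in the first table (3 of 7, led by VWF) summed to 2.28 to 3.22 CPM in Myc1 and 1.81 to 3.74 CPM in Scr1. In the second table (4 of 7, led by CDH5 over both groups together, with CLDN5, FLT1 and PECAM1 absent) they summed to 4.07 to 12.9 CPM in Myc2 and 3.42 to 5.42 CPM in Scr2. The part of either in these values was not tested.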

How the data were processed

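RNA from 16 tumours (RNA integrity number at least 7.2, per the labels' protocols) was sequenced on an Illumina NextSeq instrument. STAR 2.6.0b, bcl2fastq 2.20.0 and Picard are named in the submitters' processing notes, with the builds hg19 and mm10. How reads were counted, with which annotation, and how those of mouse and human were kept apart is not given in the sources used here. As deposited by the authors, the tables hold log2 values per human gene. Taken back from log2 they sum to 995054 to 998392 in each library and share 1 distribution per table, so they are quantile-normalized log2 CPM, in which a shift of most genes at once cannot be seen. Each table was fitted with limma 3.58.1 (R 4.3.3; trend and robust settings) on these values, for genes with at least 1 CPM in as many libraries as the smaller group, with Benjamini-Hochberg adjustment over all genes. Single values were compared by exact permutation (numpy 2.4.6). Tested differences of genes were recomputed with other offsets, filters and limma settings and without each library. Members' differences of the second experiment were recomputed with other offsets and with libraries left out only. Log ratios were recomputed without each library. Correlations were recomputed without the libraries farthest from the median and with group means removed. On simulated data, log2 changes of 1 were called for 13 of 98 genes with the sizes of the first experiment (13933 genes run) and 34 of 97 with those of the second (14177 genes run), and changes of 3 for 92 of 99 and 89 of 92. Among unchanged genes, 1 and 4 were called. The simulation drew each gene independently. In the data the first principal component held 31.3% and 43.8% of the variance, so these rates need not hold for the data. The members and lists were chosen with earlier results of these data known. Named are the 10 members, MYC, the 6 higher and 6 lower list genes with the smallest limma p in each experiment, and the 5 genes most like OSMR, SOCS3 and LIF. Some genes named by this rule are not reported here. Replicate numbers follow the order of the samples.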

Additional observations from a re-analysis of the deposited data

Results flagged for a closer look

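LIF, the leukaemia inhibitory factor, had differences of opposite sign in the 2 experiments. The difference was -0.50 on the log2 scale between Myc1 and Scr1, where all 3 Myc1 libraries lay below the Scr1 mean, and 0.91 between Myc2 and Scr2, where all 5 Myc2 libraries lay above the Scr2 mean. The difference between the experiments was not tested, and the mean of Scr1 was set by replicate 4, without which the first value was -0.18. Dixon's criterion for an outlying library marked none of the 30 sets of 4 or 5 libraries (10 members in Scr1, Myc2 and Scr2), where chance would mark about 1 in 20. The 3 libraries of Myc1 were too few for it, so the high IL6 of Myc1 replicate 3 was not examined in this way.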

How the results depend on the processing

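No paired analysis was possible because the labels give no replicate numbers, and the numbers used here only follow the order of the samples. The differences of the members between Myc1 and Scr1 kept their direction and their side of the threshold in 110 of 119 recomputations. The other 9 changed sign, all of them when 1 library was left out: SOCS3 then ranged from -0.21 to 0.11, JAK1 from -0.084 to 0.16 and JAK2 from -0.13 to 0.24. OSMR minus LIFR ranged from -0.35 to 0.031 and OSMR minus IL6ST from -0.35 to 0.013 in the first experiment. Differences of the second experiment, which have no test, moved by less than the larger group SD in 120 of 120 recomputations. Leaving out these libraries cannot move a group mean by as much as that, so the count says nothing about stability. Of the 120, 4 changed sign: JAK2 without Myc2 replicate 3 (-0.023), without Scr2 replicate 4 (-0.021) and without Scr2 replicates 1 and 4 (-0.052), and LIFR without Scr2 replicates 1 and 4 (-0.083). The number of genes passing the adjusted threshold, 0 in both experiments, was 1 in the first with at least 5 CPM and 0 to 2 with 1 library left out. In the second it was 2 without Scr2 replicates 1 and 4 and 0 to 9 with 1 library left out. In recomputations chosen after seeing the data, the number at an unadjusted p of 0.05 ranged from 181 to 955 (485 with all libraries) and from 719 to 3928 (1898 with all libraries) with 1 library left out, and it was 509 without Scr2 replicates 1 and 4. The correlation of OSMR with SOCS3 became -0.84 in the first table and -0.12 in the second without the 2 libraries farthest from the median, and that of LIF with IL6 in the second table became -0.25 with group means removed. The cause was not tested. Small library size limits the low ligands most: by the rough library sizes, IL11 in Scr1 replicate 3 rested on about 12 reads.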
